A study of Mus musculus with 32 samples.

Results

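The genes described here encode cytochrome c oxidase, complex IV of the mitochondrial respiratory chain, and the proteins that assemble it. The list holds 37 nuclear genes, 16 for subunits or close subunit relatives and 21 for assembly factors, listed by name for the known role of their products. All 37 were found by symbol among the 55401 genes counted in this mouse series. The data are 3′ RNA sequencing of 32 libraries from C57BL/6 mice at 200 days of age, with 6 CTL (labelled Ctrl) and 6 COX10 KO libraries for calf muscle and for liver, and 4 CTL and 4 COX10 KO libraries for hypothalamus. The muscle and liver groups each hold 3 females and 3 males by label, and the hypothalamus libraries are all labelled male. The COX10 KO mice carry a floxed Cox10 gene and a Cre recombinase placed in the Myl1 locus, which encodes a myosin light chain of skeletal muscle fibres, so the deletion is directed to skeletal muscle fibres. CTL mice were littermates of like age, and the labels do not say which of these alleles they carry. Calf muscle is the gastrocnemius with the soleus, a tissue of fibres, vessels, connective tissue and immune cells. The libraries were made from whole tissue, in which fewer cells of a type and less RNA per cell cannot be told apart.

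Complex IV passes electrons from cytochrome c to oxygen. Its catalytic core, COX1, COX2 and COX3, is encoded in mitochondrial DNA and carries haem A and copper, while the nuclear subunits surround and stabilise this core. Several nuclear subunits exist as a form made in most tissues and a form made in heart and skeletal muscle. COX10 converts haem B to haem O, COX15 converts haem O to haem A, and SURF1 acts at the step where haem A enters COX1. A separate set of small proteins (COX17, COX11, SCO1, SCO2 and others) delivers copper. Loss of COX10 therefore removes a cofactor that the core cannot fold without, and the question put to these libraries is how the transcripts of the other complex IV genes stood in the muscle that lacks COX10, and in the liver and hypothalamus of the same mouse line.

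A gene's level is given as CPM, its counts scaled to a common library total with factors from the trimmed mean of M values (TMM). In a 3′ library each transcript is read near its end, so counts do not grow with transcript length. The muscle libraries held 434494 to 11404800 counts. Liver libraries held 674311 to 16044634 and hypothalamus libraries 3526613 to 22321322. A limit drawn from counts below covers counting error alone, because copies made by PCR were not told apart by molecular tags. Each tissue carried its own markers. The 13 fibre markers summed to at least 65352 CPM in muscle, and their highest sum was 726 CPM in liver (COX10 KO library 6) and 312 CPM in hypothalamus. The 8 hepatocyte markers summed to at least 75383 CPM in liver. The 7 neuron markers, with Tubb3 at 0, summed to at least 3487 CPM in hypothalamus. The library CTL muscle 2 stood apart. It was the shallowest, with 434494 counts, and held the lowest CTL sum of fibre markers at 66735 CPM and the highest CTL sums of adipocyte markers at 5360 CPM and of hepatocyte markers at 2400 CPM. The sex-linked transcripts of 2 libraries, CTL liver 1 and CTL liver 4, did not match the labelled sex. No 2 libraries were identical.

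Of the 37 genes, 34 had counts. Cox4i1, the common form of subunit 4, Cox16, an assembly factor, and Cox17, the copper chaperone, were listed at 0 in all 32 libraries. Over 157874140 counts in total, 0 counts allow a level of up to 0.019 CPM. Cells that respire use Cox4i1 and Cox17, so a 0 here is not read as absence of the transcript. In the GENCODE M21 annotation the predicted gene Gm20498 covers 56.8% of the exon bases of Cox16 on the same strand. Near the end of the exons, where these libraries are read, it covers 82.0%. Gm21987 covers 4.45% of the exon bases of Cox17, and 0% near the end. No gene shares exon bases with Cox4i1 on its strand, though Gm20388 overlaps its locus there. Of the 55401 identifiers counted, 54349 have the same version in GENCODE M21, so the annotation behind the counts may differ. The part of these overlaps in the counts was not tested. Cox4i2, the second form of subunit 4, had 141 counts in 19 libraries and was too low to test. In muscle 33 of the 37 genes passed the filter on low counts, all but Cox4i1, Cox4i2, Cox16 and Cox17.

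In COX10 KO muscle, transcripts of complex IV stood higher than in CTL muscle for 6 of the 33 genes tested and lower for 1, by the quasi-likelihood test of edgeR at an adjusted p under 0.05. Over all 10950 genes tested, 7.93% were higher and 6.97% lower. The 6 that rose were the subunit genes Cox7b, Cox5a, Cox7a2, Cox6a1 and Cox7c and the assembly gene Cox11, and the 1 that fell was the assembly gene Pet100. Of the 14 subunit genes tested 13 had a log2 difference above 0, with a median of 0.54, against a median of 0.01 over all genes. An unadjusted p under 0.05 was found for 11 of the 14 subunit genes and for 30.3% of all genes. The assembly genes were more mixed, with 13 of 19 above 0, a median of 0.24 and 1 called in each direction. No test compared the list with other genes. By library size alone the median of all genes moved from 0.01 to 0.18 and the split of calls over all genes from 868 higher and 763 lower to 1219 and 470, with 11 members higher and 1 lower. Summed over the members on a scale shared by the 3 tissues, complex IV transcripts averaged 14200 CPM in the CTL muscle and 19601 CPM in that of COX10 KO mice, of which the subunits were 12755 and 17933 CPM in that order. As a share of all counts with no scaling factor, the members held 1.05% to 1.39% of a CTL muscle library and 1.6% to 1.95% of a COX10 KO muscle library.

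**Figure D1:**
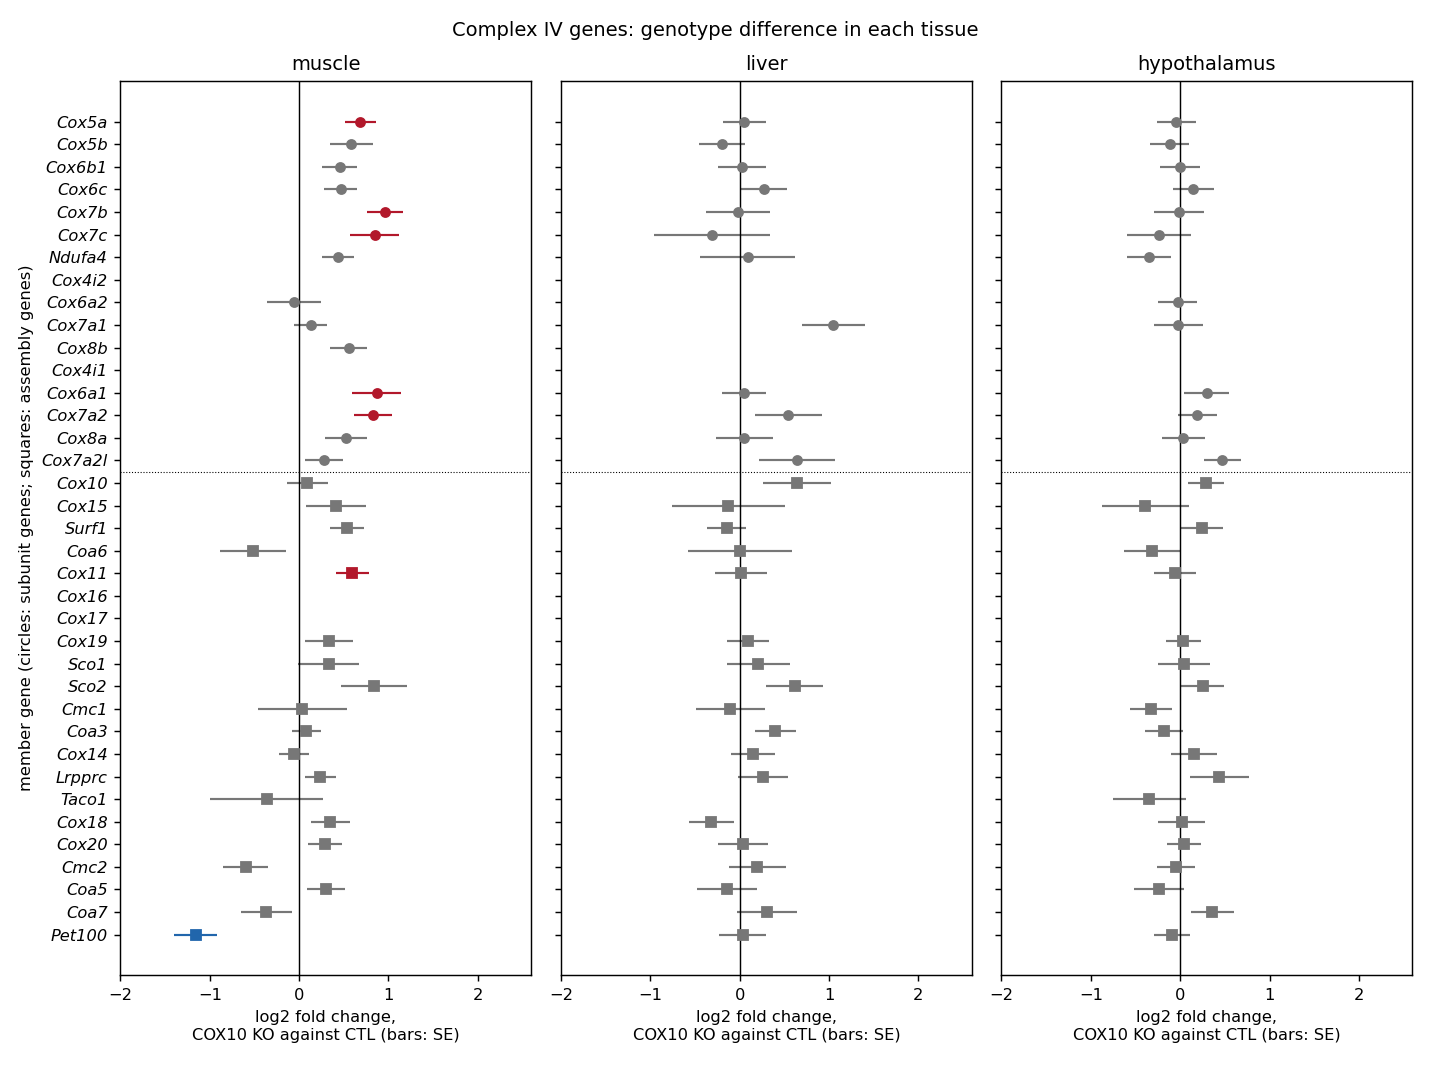
Log2 difference between COX10 KO and CTL (x axis, bars ± 1 SE) for each complex IV gene tested in muscle, liver and hypothalamus, with genes in rows by role, circles for subunit and squares for assembly genes, red for called higher, blue for called lower and grey for not called. In muscle the subunit genes lie to the right of 0 except Cox6a2, 6 genes are called higher and Pet100 lower, and no gene is called in liver or hypothalamus.

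The subunit gene with the lowest adjusted p was Cox7b (ENSMUSG00000031231.4, chrX:106015700-106022450, plus strand, GRCm38), which encodes a small subunit set in the membrane. Its level was 733 CPM in the lowest CTL muscle, 811 CPM at the median and 1452 CPM in the highest, and 1718, 1844 and 2016 CPM in COX10 KO muscle. Every COX10 KO library lay above every CTL library. The fitted rise was 1.95-fold (log2 0.96 ± 0.21, SE; adjusted p = 0.00633 by edgeR). Cox5a (ENSMUSG00000000088.7, chr9:57521274-57532426, plus strand), a matrix-facing subunit, also showed no overlap between the groups. Its CTL libraries ran from 746 to 1358 CPM with a median of 927 CPM, and its COX10 KO libraries from 1426 to 1682 CPM with a median of 1575 CPM, a 1.61-fold rise (log2 0.69 ± 0.17, adjusted p = 0.0161 by edgeR). Among all genes tested, 4.7% had every COX10 KO muscle library above every CTL library and 2.03% had every one below. Of the 33 complex IV genes, 2 lay wholly above and 1, Pet100, wholly below.

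Cox7a2 (ENSMUSG00000032330.7, chr9:79755361-79759878, minus strand) encodes the common form of subunit 7A. Its level ran from 327 to 828.95 CPM in CTL muscle, with a median of 584 CPM, and from 707 to 1301 CPM in COX10 KO muscle, with a median of 927 CPM. In 5 of the 6 COX10 KO libraries it exceeded every CTL library. The rise was 1.78-fold (log2 0.83 ± 0.21, adjusted p = 0.0178 by edgeR). Cox6a1 (ENSMUSG00000041697.8, chr5:115345642-115348981, minus strand), the common form of subunit 6A, ran from 45.4 to 198 CPM in CTL muscle with a median of 80.2 CPM. In COX10 KO muscle it ran from 143 to 192 CPM with a median of 168 CPM, so all 6 COX10 KO libraries lay above the CTL median but below the highest CTL library. That highest library was CTL muscle 2, described above. Its rise was 1.82-fold (log2 0.87 ± 0.28, adjusted p = 0.0444 by edgeR). Cox7c (ENSMUSG00000017778.14, chr13:86044816-86046904, minus strand), a short membrane subunit, was among the most abundant members. It ran from 906 to 2322 CPM in CTL and from 1516 to 3887 CPM in COX10 KO muscle, with medians of 1313 and 3042 CPM. The groups overlapped, and the rise was 1.80-fold (log2 0.85 ± 0.27, adjusted p = 0.0483 by edgeR).

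**Figure D2:**
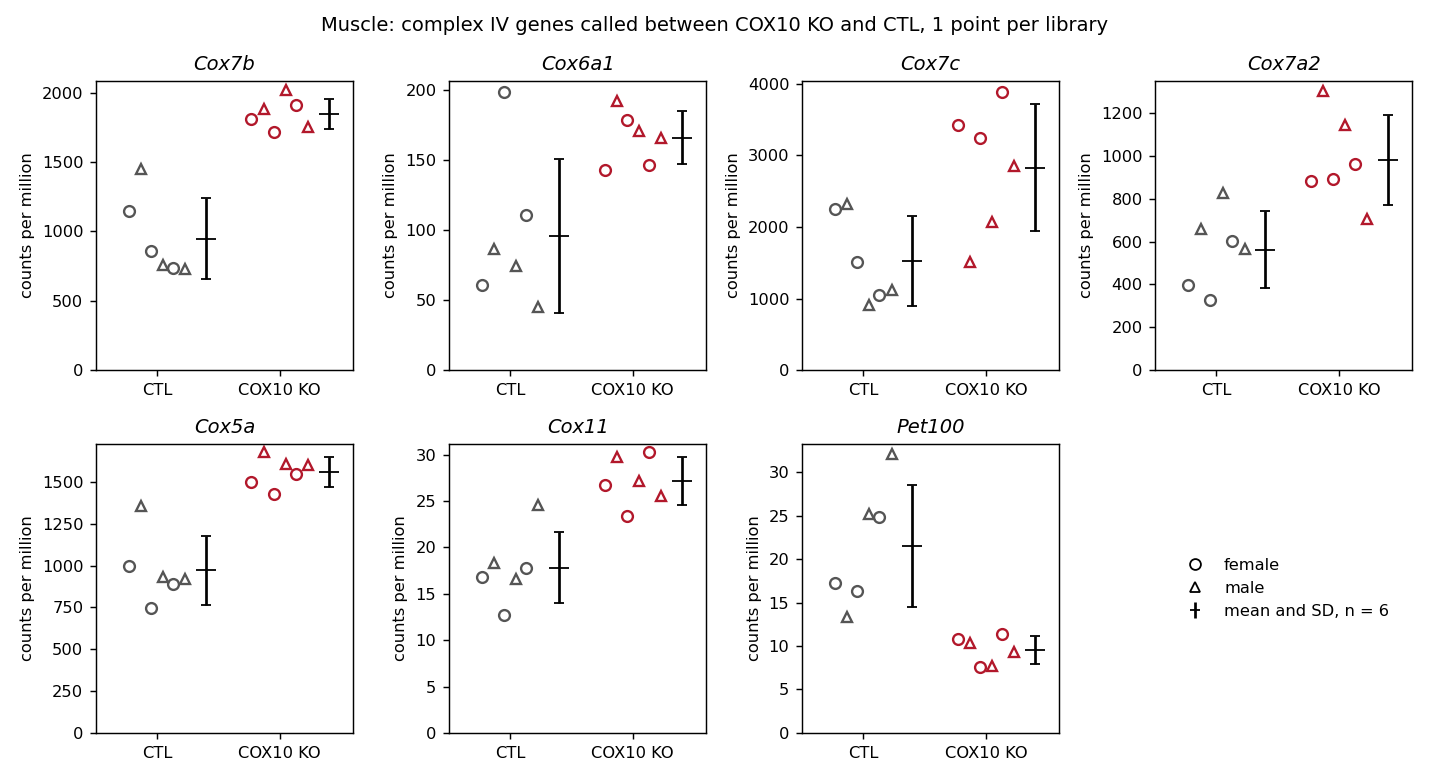
CPM (y axis, from 0) of the 7 complex IV genes called in muscle, 1 point per library with circles for females and triangles for males, beside the mean and SD of each group (n = 6). The groups do not overlap for Cox7b, Cox5a and Pet100 and overlap for Cox7a2, Cox6a1, Cox7c and Cox11.

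The calls differed in how far they depended on single libraries. Cox7b, Cox5a and Pet100 stayed called in all 12 fits that left out 1 muscle library. Cox7a2 stayed called in 11 of 12 and was lost without CTL 6 (edgeR adjusted p = 0.0533). Cox11 stayed called in 3 of the 12 (without CTL 2, CTL 6 or COX10 KO 6), Cox7c in 2 (without CTL 4 or COX10 KO 4) and Cox6a1 in 1 (without CTL 2). With any other library left out, the count of members higher fell to 3, except that without CTL 3 Sco2 and Surf1 joined Cox7b, Cox5a and Cox7a2. Without COX10 KO 6, Cox5b and Cox8b were called as well. Without 1 library, the edgeR adjusted p of Cox11, Cox7c and Cox6a1 reached 0.101, 0.124 and 0.145 in that order. The log2 differences of these 3 genes kept their sign in every alternative run. Without CTL muscle 2 alone, the members called were Cox7b, Cox5a, Cox7a2, Cox6a1 and Cox11 (higher) and Pet100 (lower). By label the sexes gave the same sign for all 7 genes. These genes were called over both sexes together, so like signs are no separate check of the calls. Cox7b stood at log2 0.95 in females and 0.94 in males and Pet100 at -1.04 and -1.32, while Cox6a1 stood at 0.33 in females and 1.35 in males and Cox7c at 1.09 and 0.56. The difference between the sexes was not tested, and the female CTL group holds CTL muscle 2, the library with the highest Cox6a1. With 3 libraries a group, 0 of the 7 passed by edgeR in females alone and 1, Cox6a1, in males alone.

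The other subunit genes did not pass the test. Cox6c stood at log2 0.46 (adjusted p = 0.103 by edgeR), Cox5b at 0.58 (0.118), Cox6b1 at 0.45 (0.127) and Ndufa4 at 0.44 (0.118). In 5 of 6 COX10 KO libraries Cox6b1 and Ndufa4 exceeded every CTL library. Ndufa4, long listed with complex I, encodes a subunit of complex IV. Cox7a2l, a relative of subunit 7A, is listed as a factor for supercomplexes of complexes III and IV, a role not examined in these mice. It ran from 30.9 to 105 CPM in CTL and from 84.3 to 117 CPM in COX10 KO muscle (log2 0.28 ± 0.21, adjusted p = 0.398 by edgeR).

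Subunits 6A, 7A and 8 each have a muscle form and a common form. The RefSeq promoter windows of the pairs for subunits 7A and 8 are shown because they differ in their CG dinucleotides, which are in capitals. Each window runs from 250 bases before to 50 after the annotated start on GRCm38.p6 and is written 5′ to 3′ along the gene.
Cox7a1 (muscle form, chr7:30183921-30184220, plus strand): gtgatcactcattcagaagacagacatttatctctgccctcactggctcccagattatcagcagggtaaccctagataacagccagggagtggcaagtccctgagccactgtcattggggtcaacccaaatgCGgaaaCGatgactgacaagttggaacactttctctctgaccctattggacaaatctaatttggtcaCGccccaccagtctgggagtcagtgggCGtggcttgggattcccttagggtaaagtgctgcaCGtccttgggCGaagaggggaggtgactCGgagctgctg
Cox7a2 (common form, chr9:79759804-79760103, minus strand): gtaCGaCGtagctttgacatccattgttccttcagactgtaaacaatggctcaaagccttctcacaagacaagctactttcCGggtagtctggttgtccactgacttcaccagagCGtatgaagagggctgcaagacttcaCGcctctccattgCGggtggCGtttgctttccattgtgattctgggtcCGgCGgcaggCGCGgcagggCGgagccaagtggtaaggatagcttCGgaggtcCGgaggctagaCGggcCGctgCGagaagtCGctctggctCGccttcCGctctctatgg
Cox8b (muscle form, chr7:140900397-140900696, minus strand): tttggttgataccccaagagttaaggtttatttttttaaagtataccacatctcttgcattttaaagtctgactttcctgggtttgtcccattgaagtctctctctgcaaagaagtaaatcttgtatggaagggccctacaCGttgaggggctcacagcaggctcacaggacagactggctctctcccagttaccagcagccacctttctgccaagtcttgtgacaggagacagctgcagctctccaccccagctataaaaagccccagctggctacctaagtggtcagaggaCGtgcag
Cox8a (common form, chr19:7217567-7217866, minus strand): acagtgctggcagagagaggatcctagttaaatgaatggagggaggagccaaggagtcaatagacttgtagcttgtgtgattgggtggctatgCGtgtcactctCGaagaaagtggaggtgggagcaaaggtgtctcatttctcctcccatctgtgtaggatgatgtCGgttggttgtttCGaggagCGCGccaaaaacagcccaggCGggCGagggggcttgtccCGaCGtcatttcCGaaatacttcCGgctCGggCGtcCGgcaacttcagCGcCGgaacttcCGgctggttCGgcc
The muscle forms held 7 (Cox7a1) and 2 (Cox8b) CG dinucleotides, and the common forms 20 (Cox7a2) and 19 (Cox8a). Cox6a2, the muscle form of subunit 6A, had no window, so that pair could not be compared. Few CG were not confined to muscle forms, since Cox7b, which belongs to none of these pairs, held 5. Among all 32851 windows of the table the median was 7, and among the 30 members with a window the count ran from 2 to 42 with a median of 21.

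The muscle form made up a smaller share of the subunit 7A transcripts in COX10 KO muscle. Cox7a1, the muscle form (ENSMUSG00000074218.3, chr7:30184144-30186078, plus strand), ran from 415 to 790 CPM in CTL and from 508 to 848 CPM in COX10 KO muscle, with medians of 570 and 624 CPM. It did not pass the test (log2 0.13 ± 0.18, adjusted p = 0.683 by edgeR), while its common counterpart Cox7a2 rose. The share of Cox7a1 in the counts of both genes is measured within a library and does not depend on library scaling. In CTL muscle this share was 52.1% ± 3.41 (SD, n = 6) and ran from 48.0% to 55.9%. In COX10 KO muscle it was 39.8% ± 2.09 (SD, n = 6) and ran from 36.3% to 41.8%. The groups did not overlap, and the share fell by 12.3 percentage points. The 2-sided exact permutation test gave p = 0.0022, the smallest that 6 against 6 libraries allow, and 0.0065 adjusted over the 3 pairs tested. Leaving out any 1 library kept the fall between 11.5 and 13.1 points. It fell by 13.6 points in females and by 10.9 points in males, where 3 against 3 libraries cannot go below an exact p of 0.1. With the replicate number as a block (6 pairs, smallest p 0.0312) the adjusted exact p was 0.0938.

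The shares of subunits 6A and 8 differed between genotypes by less than the spread of the CTL libraries. Cox6a2 (ENSMUSG00000030785.8, chr7:128205435-128206387, minus strand), the muscle form of subunit 6A, was the most abundant member in muscle. It ran from 1334 to 4845 CPM in CTL and from 1943 to 3880 CPM in COX10 KO muscle (log2 -0.06 ± 0.30, adjusted p = 0.929 by edgeR). Its share of the subunit 6A counts was 96.1% ± 4.49 in CTL and 94.9% ± 1.5 in COX10 KO muscle (SD, n = 6 each; exact permutation p = 0.706 adjusted over the 3 pairs). This comparison turned on 1 library. CTL muscle 2 had a share of 87.1% and the other 5 CTL libraries 96.8% to 99.0%, and without it the share fell by 2.99 points with an adjusted exact permutation p of 0.0065. Cox8b (ENSMUSG00000025488.9, chr7:140898945-140900446, minus strand), the muscle form of subunit 8, ran from 355 to 790 CPM in CTL and from 545 to 1007 CPM in COX10 KO muscle (log2 0.56 ± 0.21, adjusted p = 0.0835 by edgeR). Cox8a (ENSMUSG00000035885.5, chr19:7215153-7217616, minus strand), the common form, ran from 29.95 to 92.8 CPM in CTL and from 76.6 to 85.5 CPM in COX10 KO (log2 0.52 ± 0.24, adjusted p = 0.147 by edgeR). Neither form of subunit 8 passed, and the share of Cox8b was 89.5% ± 6.70 in CTL and 90.6% ± 2.02 in COX10 KO muscle (SD, n = 6 each; adjusted exact permutation p = 0.706).

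**Figure D3:**
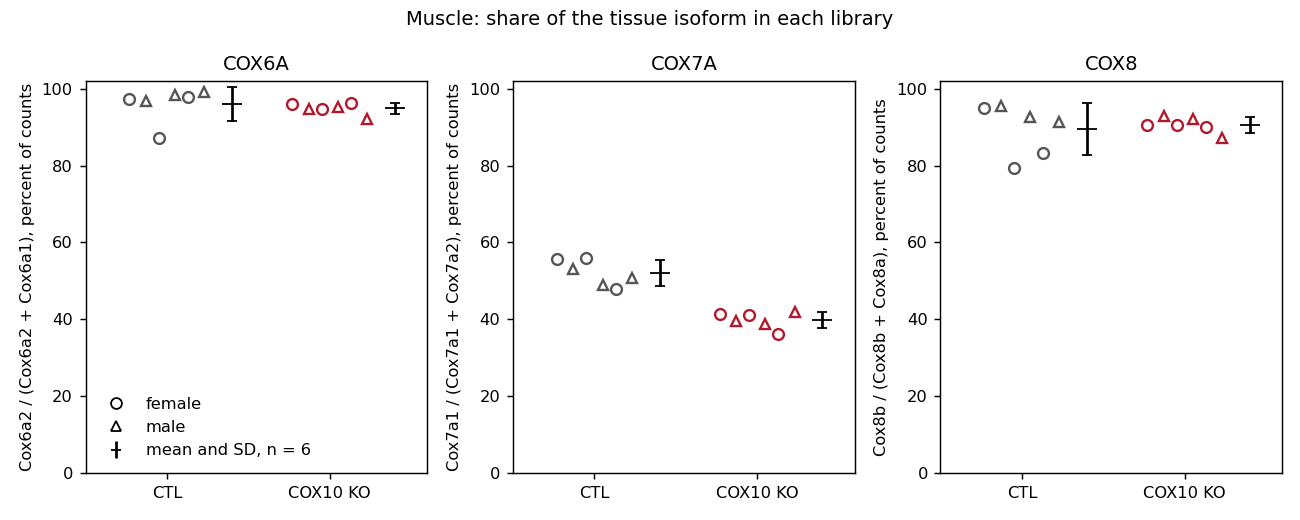
Share of the muscle form in the counts of both forms (percent, y axis) for subunits 6A, 7A and 8 in muscle, 1 point per library with circles for females and triangles for males, beside the mean and SD of each group (n = 6). The subunit 7A shares separate, at 48.0% to 55.9% in CTL and 36.3% to 41.8% in COX10 KO muscle, and the other pairs overlap.

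The subunit 4 pair could not be examined, since Cox4i1 was listed at 0. Outside muscle the muscle forms were a small part of each pair in both genotypes. In liver the share of subunit 6A ran from 0% to 0.331% in CTL and from 0% to 2.67% in COX10 KO, with medians of 0.129% and 0.0399%. That of subunit 8 ran from 0% to 0.395% in CTL and from 0% to 1.72% in COX10 KO, with medians of 0.106% and 0%. In both pairs the highest values came from COX10 KO liver 6 and 4, whose fibre markers summed to 726 and 157 CPM, against at most 39.7 CPM in the other liver libraries, and the part of this in the shares was not tested. For subunit 7A the medians were 0.639% and 1.04%. In hypothalamus the mean share in CTL and COX10 KO was 6.89% and 5.88% for subunit 6A, 1.42% and 1.25% for subunit 7A, and 0.246% and 0.41% for subunit 8.

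Cox10 itself (ENSMUSG00000042148.8, chr11:63962627-64079468, minus strand) did not differ detectably in its 3′ counts. It ran from 47.3 to 145 CPM in CTL and from 95.7 to 140 CPM in COX10 KO muscle, with medians of 122 and 110 CPM (log2 0.09 ± 0.23, adjusted p = 0.832 by edgeR). The lowest CTL value was that of CTL muscle 2. Reads from the 3′ end of a transcript do not show whether an upstream part of the gene is deleted, so this is no check of the knockout. Cox15, the next enzyme of haem A synthesis, was widely scattered, from 22.5 to 93.9 CPM in CTL and from 31.3 to 118 CPM in COX10 KO muscle (log2 0.41 ± 0.33, adjusted p = 0.431 by edgeR). Surf1 stood at log2 0.54 (adjusted p = 0.0648 by edgeR), with 5 of 6 COX10 KO libraries above every CTL library. None of the 3 haem A genes passed the test.

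Of the 5 copper delivery genes tested, 1 rose, against 7.93% of all genes, and 4 had a difference above 0. Cox11 (ENSMUSG00000020544.14, chr11:90638173-90644931, plus strand) hands copper to COX1. It ran from 12.7 to 24.6 CPM in CTL and from 23.4 to 30.3 CPM in COX10 KO muscle, with medians of 17.3 and 27.0 CPM, and 5 of 6 COX10 KO libraries lay above every CTL library. The rise was 1.51-fold (log2 0.60 ± 0.18, adjusted p = 0.0368 by edgeR). Sco2, which brings copper to COX2, stood at log2 0.84 ± 0.37 (adjusted p = 0.137 by edgeR) on 103 counts in CTL and 466 in COX10 KO muscle. The annotation has Tymp covering 68.3% of the Sco2 exon bases on the same strand, and 41.2% near the end of the exons. How reads in this overlap were assigned was not tested. The 5 genes of COX1 synthesis and the early COX1 module (Cox14, Coa3, Cmc1, Taco1 and Lrpprc) had a median log2 difference of 0.04, and 0 passed. The COX2 insertion factors Cox18 and Cox20 stood at 0.35 and 0.29 and did not pass.

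Pet100 (ENSMUSG00000087687.3, chr8:3621548-3625848, plus strand), a small inner-membrane protein needed to build complex IV, was the only member called lower and had the lowest adjusted p of the list. It ran from 13.3 to 32.1 CPM in CTL muscle, with a median of 21.1 CPM, and from 7.59 to 11.4 CPM in COX10 KO muscle, with a median of 9.86 CPM. Each of the 6 COX10 KO libraries was below the lowest CTL library. The fitted level fell to 0.449 of CTL (log2 -1.16 ± 0.24, adjusted p = 0.00547 by edgeR). These values rest on 369 counts in CTL and 409 in COX10 KO muscle, and the gene was not tested where at least 10 counts were asked of every library. Pcp2 overlaps Pet100 on the other strand, and how far reads were assigned by strand is not given in the sources used here. Of the other late or unplaced assembly factors, Cmc2 stood at log2 -0.60 (adjusted p = 0.115 by edgeR), Coa7 at -0.37 (0.423) and Coa5 at 0.30 (0.367).

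Among the other respiratory complexes single genes rose in COX10 KO muscle, where 7.93% of all genes did, and none was called lower. Of the nuclear subunit genes tested, 2 of 35 rose for complex I (median log2 0.16), 1 of 3 for complex II (0.49), 2 of 9 for complex III (0.30) and 3 of 15 for complex V (0.48). The share of complex I was below that of all genes, and the other lists are short. Examples were Ndufs1 (log2 0.76) of complex I, Sdha (0.64) of complex II, Uqcrc2 (0.63) of complex III and Atp5b (0.79) of complex V. The subunit genes of complex IV, with 5 of 14 and a median of 0.54, were not tested against these complexes. The mitochondrially encoded mt-Co1, the transcript of COX1, rose from 2951 ± 780 to 4778 ± 549 CPM (mean ± SD, n = 6 each; log2 0.71, adjusted p = 0.0297 by edgeR). Cycs, cytochrome c of somatic cells, stood at log2 0.17 (adjusted p = 0.53 by edgeR). mt-Co2 and mt-Co3 had at most 2 counts in a group, which, as for Cox4i1, is not read as absence of the transcripts. How reads of the mitochondrial genes were counted was not tested, and the value of mt-Co1 shares this limit. Of 10 further complex IV genes tested, 2 rose, Oxa1l (log2 0.62, adjusted p = 0.0395 by edgeR), which inserts proteins into the inner membrane, and Fdxr (log2 1.25, adjusted p = 0.0253 by edgeR), the reductase that supplies electrons to ferredoxins.

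Haem and copper, the cofactors of the core, had differing lists. None of the 8 haem synthesis genes tested passed, and their median log2 difference was -0.29. The lowest p were those of Alas2 (log2 -1.74, adjusted p = 0.105 by edgeR) and Alad (-0.56, adjusted p = 0.165). Of 7 copper handling genes 4 rose, with a median of 0.72, where 7.93% of all genes rose. The list is short and was not tested against other genes. The metallothioneins Mt2 and Mt1, which bind zinc and copper, rose most, by log2 4.73 (adjusted p = 7.07e-06 by edgeR) and 3.75 (2.03e-05). Mt1 went from 93.5 ± 38.5 to 1227 ± 607 CPM and Mt2 from 50.7 ± 27.9 to 1210 ± 601 CPM (mean ± SD, n = 6 each). Slc25a3, the mitochondrial carrier of phosphate and copper, and Slc31a1, the copper importer of the plasma membrane, rose by log2 0.87 and 0.72.

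Markers of the cells in the tissue moved with the genotype as well. Of 13 fibre markers tested, 4 were called lower and 0 higher, against 6.97% and 7.93% of all genes. Their median log2 difference was -0.82, and 4 of the 13 had a difference above 0, up to 0.42. Their sum ran from 66735 to 187217 CPM in CTL and from 65352 to 121796 CPM in COX10 KO muscle. Myl1, whose locus carries the Cre, was among the markers called lower, at log2 -1.02 (adjusted p = 0.0119 by edgeR). The part of the Cre in the fall of Myl1 was not tested. Of 9 macrophage markers tested, 4 were called higher, against 7.93% of all genes, led by Cd68 at log2 3.83. The macrophage sum ran from 111 to 373 CPM in CTL and from 239 to 579 CPM in COX10 KO muscle. Of 6 fibroblast markers 1, Col1a2, was lower (sum 860 to 1310 and 765 to 1158 CPM). None of 4 endothelial markers (sum 147 to 201 and 140 to 224 CPM, Egfl7 at 0), 5 adipocyte markers (255 to 5360 and 797 to 2239 CPM), 4 hepatocyte markers (45.4 to 2400 and 21 to 347 CPM) or 1 neuron marker (13.8 to 50.9 and 4.76 to 14.7 CPM, Tubb3 at 0) passed, and no neuropeptide marker was tested. The part of these shifts in the complex IV differences was not tested. Depth differed as well, with a median total of 2453792 counts in CTL and 6027218.5 in COX10 KO muscle. When deeper libraries were thinned to 1734571 counts, 4 members were called higher and 1 lower.

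In liver, a tissue outside the reach intended for the Cre, 0 of the 30 members tested were called, against 0.0882% of all 9072 genes tested by edgeR. At an unadjusted p under 0.05 there was 1 member and 419 genes, and DESeq2 called 0 members and 62 genes. The members' median log2 difference was 0.05 and that of all genes -0.02. The smallest p was that of Cox7a1, at the low levels of a muscle form outside muscle. The CTL liver libraries held 3.70, 3.29, 2.16, 3.57, 4.67 and 0.975 CPM of Cox7a1 and the COX10 KO liver libraries 6.90, 5.15, 6.61, 6.31, 6.58 and 6.99 CPM. The groups did not overlap, as for 0.176% of genes in that direction, but the adjusted p was 0.817 (log2 1.05 ± 0.35, edgeR), and the values rest on 98 counts in CTL and 76 in COX10 KO. Without CTL liver 1 and 4 it was log2 1.21 with an adjusted p of 0.771. The next were Sco2 at log2 0.62 and Coa3 at 0.40. Cox10 in liver ran from 28.3 to 49.0 CPM in CTL and from 24.1 to 137 CPM in COX10 KO (log2 0.64 ± 0.38, adjusted p = 0.998 by edgeR), and its highest value came from COX10 KO liver 3, the shallowest liver library with 674311 counts. No member was called in any of 23 alternatives. In data simulated for the liver fit, a log2 change of 1 was recovered for 6 of 100 genes. Pet100, which fell in muscle, stood at log2 0.03 ± 0.26 in liver, from 13.7 to 25.6 CPM in CTL and from 8.03 to 27.0 CPM in COX10 KO. Among the liver's cell markers, the macrophage sum ran from 264 to 1147 CPM in CTL and from 152 to 471 CPM in COX10 KO, with 0 of 9 markers called, but all 9 had a log2 difference below 0 (median -1.32) and 8 had an unadjusted p under 0.05. The part of this shift in the members' values was not tested. The hepatocyte sum ran from 76901 to 136374 CPM in CTL and from 75383 to 208836 CPM in COX10 KO.

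In hypothalamus 0 of the 32 members tested were called, against 0.0% of 13504 genes by edgeR. DESeq2 called 0 genes as well, while 211 genes by edgeR and 287 by DESeq2 had an unadjusted p under 0.05, 1 of them a member by edgeR. With the replicate number as a block, 2 genes were called, neither of them a member. The members' median log2 difference was -0.01 and that of all genes -0.01. The smallest p was that of Cox7a2l, at 78.5, 124, 121 and 87.1 CPM in CTL and 108, 150, 163 and 148 CPM in COX10 KO hypothalamus, groups that overlap (log2 0.47 ± 0.21, adjusted p = 1.0 by edgeR). It was higher in COX10 KO in each of the 4 pairs of same-numbered libraries, and with the replicate number as a block it stood at log2 0.48 (edgeR adjusted p = 0.352). Coa7, an assembly factor of the intermembrane space, stood at 15.3, 13.7, 19.1 and 8.52 CPM in CTL and 19.7, 16.7, 19.5 and 16.9 CPM in COX10 KO (log2 0.36), also higher in each of the 4 pairs (log2 0.39 with the block, edgeR adjusted p = 0.53). Cox10 stood at 71.2, 82.6, 79.4 and 48.9 CPM in CTL and 71.2, 94.9, 93.1 and 86.3 CPM in COX10 KO (log2 0.29 ± 0.20). Pet100 ran from 20.9 to 38.2 CPM in CTL and from 25.2 to 28.2 CPM in COX10 KO. The neuron markers summed to 3573 to 5288 CPM in CTL and 3487 to 4099 CPM in COX10 KO. The hepatocyte list, with Apob and Fgb at 0, summed to 1232 to 2821 CPM in CTL and 3154 to 5272 CPM in COX10 KO. Of its 8 genes 1 passed the filter here, at log2 0.91, and was not called. Between CTL tissues, 1 gene of the list was higher in hypothalamus than in muscle (log2 5.06) and 7 were lower, so the sum does not stand for the whole list. The part of this list in the values above was not tested.

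Whether a genotype difference was larger in muscle than in liver was tested by the interaction of genotype and tissue over the 24 libraries of both. None of the 33 members tested passed by edgeR, against 2.12% of 11132 genes, and 3 members had an unadjusted p under 0.05. Pet100 came nearest, at log2 -1.24 ± 0.35 (muscle difference minus liver difference, edgeR adjusted p = 0.0607). It passed with DESeq2 (log2 -1.28, adjusted p = 0.0152) and, by edgeR, without COX10 KO liver 4 (-1.38, adjusted p = 0.0272) or without CTL muscle 4 (-1.35, adjusted p = 0.034). Without CTL liver 1 and 4 it stood at -1.2 (edgeR adjusted p = 0.109). By edgeR, Cox7a1 stood at -0.97 (adjusted p = 0.167), Surf1 at 0.65 (0.192), Cox7b at 0.92 (0.282) and Cox5a at 0.59 (0.33). The rises of the 5 subunit genes are therefore called in muscle and are not shown to differ from liver. In simulated data this interaction test recovered a log2 difference of 1 for 8 of 100 genes, so it could miss differences of that size.

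Between the tissues of CTL mice the muscle forms differed by far more than any member did between genotypes. The comparison used the 16 CTL libraries, with sex as a term, and 33 of the 37 genes were tested by edgeR. CTL muscle exceeded CTL liver for 11 members and lay below it for 5, against 27.9% and 26.6% of all 14212 genes. The muscle forms led. Cox6a2 averaged 3813 ± 1695 CPM in CTL muscle and 1.29 ± 1.3 CPM in CTL liver (SD, n = 6 each; log2 11.57), and Cox8b 634 ± 215 and 0.374 ± 0.431 CPM (log2 11, on 6 counts in liver). Cox7a1 averaged 672 ± 188 and 3.60 ± 1.55 CPM (log2 7.47). The common forms of subunits 6A and 8 went the other way, Cox6a1 at log2 -3.24 and Cox8a at -2.39, while Cox7a2 stood at 0.03 (edgeR adjusted p = 0.951), so that in subunit 7A both forms were present in muscle. Among the shared subunits Cox5a (log2 1.37), Cox5b (0.99), Cox6c (0.89) and Cox7b (0.85) were higher in muscle. Without CTL liver 1 and 4 the members numbered 12 higher and 4 lower.

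The assembly genes lay on both sides. Their median log2 difference between CTL muscle and CTL liver was -0.35, against 0.79 for the subunit genes. Cox14 (log2 1.73), Cox10 (1.57, edgeR adjusted p = 9.38e-05), Cmc2 (0.94) and Cox11 (0.72) were higher in CTL muscle, and Sco2 (-2.91), Cox18 (-0.63) and Surf1 (-0.62) lower. Cox10 averaged 122 ± 47.0 CPM in CTL muscle, 40.7 ± 10.2 in CTL liver (SD, n = 6 each) and 46.2 ± 10.5 CPM in CTL hypothalamus (SD, n = 4). Of these, liver and hypothalamus did not differ beyond their spread (log2 0.07 ± 0.34, adjusted p = 0.866 by edgeR). Cox15 averaged 67.1 ± 44.9 CPM in CTL liver, 57.0 ± 33.0 in CTL muscle and 14.5 ± 11.7 in CTL hypothalamus, and muscle and liver did not differ beyond their spread (log2 -0.31, adjusted p = 0.653 by edgeR).

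**Figure D4:**
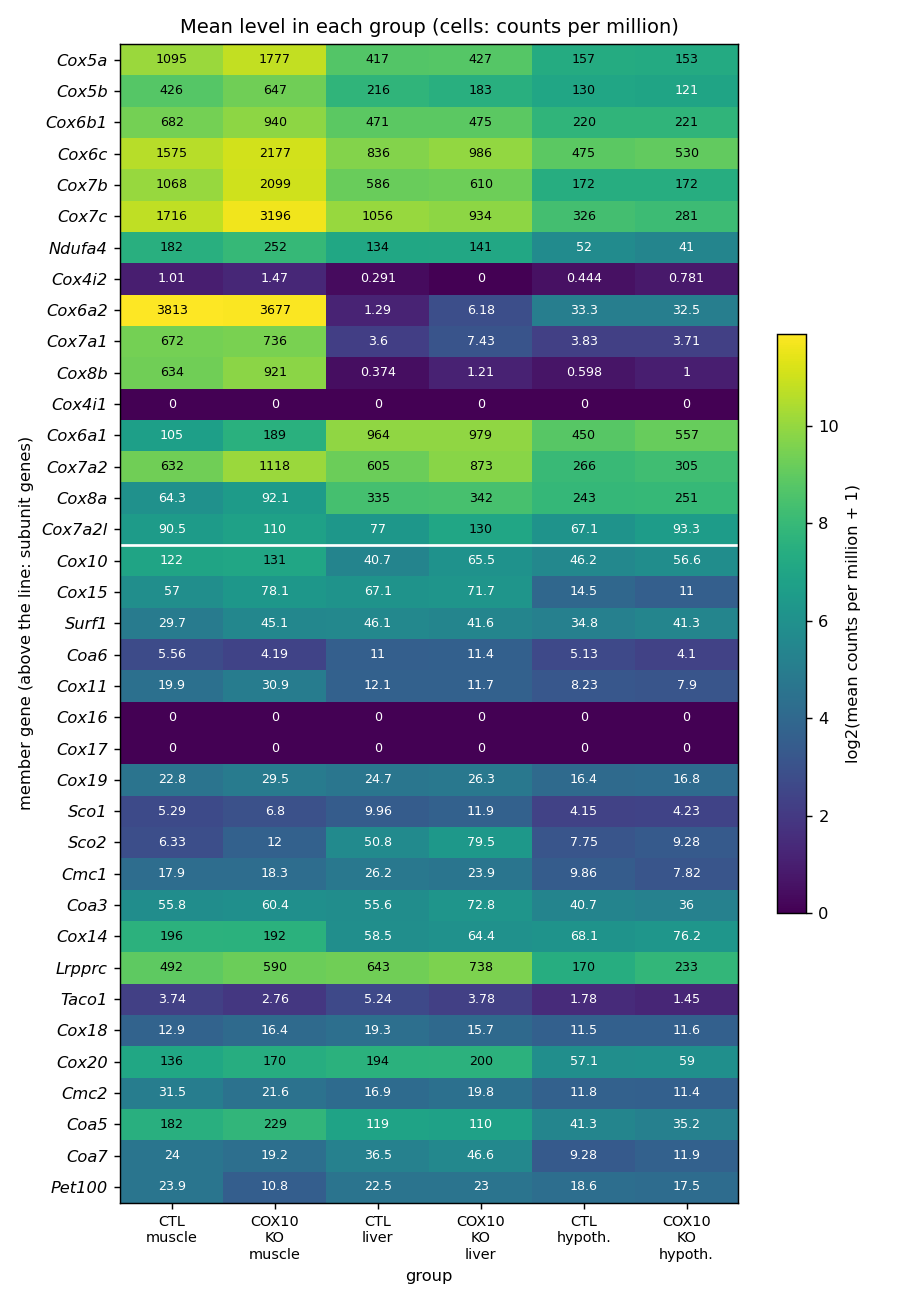
Mean level of each of the 37 complex IV genes (rows, subunit genes above the line) in the 6 groups (columns), as CPM on a scale shared by the tissues printed in each cell and coloured by log2(mean CPM + 1). The muscle forms Cox6a2, Cox8b and Cox7a1 span the widest range between tissues, and the common forms Cox6a1 and Cox8a are lowest in muscle.

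On the scale shared by the tissues, the members summed to 3175 CPM in CTL hypothalamus, 7161 CPM in CTL liver and 14200 CPM in CTL muscle. The gap to liver depended on that scaling. As a share of all counts with no factor, the members held 0.489% ± 0.118 (SD, n = 4) in hypothalamus, 0.609% ± 0.122 in liver and 1.19% ± 0.127 in muscle (SD, n = 6 each), and the hypothalamus and liver libraries overlapped. Against liver 1 member was higher, Cox6a2 at log2 4.42, and 20 were lower (37.6% and 27.6% of all genes). Sco2 (log2 -2.49), Cox15 (-2.12), Lrpprc (-2.07) and Coa7 (-1.96) were the furthest below. Against muscle 2 were higher, the common forms Cox6a1 (log2 2.27) and Cox8a (1.98), and 20 lower (36.0% and 24.2% of all genes). Cox8b (log2 -10.31), Cox7a1 (-7.55), Cox6a2 (-7.14) and Cox5a (-2.89) were the furthest below. These counts depend on scaling. By library size alone, the median of all genes rose from 0.27 to 1.12 in hypothalamus against liver and from 0.32 to 1.2 against muscle. The members then numbered 4 higher and 5 lower against liver, and 5 higher and 13 lower against muscle. Without CTL liver 1 and 4, 16 members were lower in hypothalamus than in liver, and Cox6a1 was no longer called (log2 -0.84, edgeR adjusted p = 0.0774).

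Over the 6 group means, the members whose levels followed Cox10 most closely were Cox8b (Spearman's rho 1.0), Cox7a1 (0.943) and Cox6c (0.83, a value shared with Cox7b and Cox6b1). This is a description of 6 groups of 3 tissues, and the points share libraries and scaling.

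Short motifs, chosen with these results known, were searched on both strands of the same RefSeq windows, which covered 30 of the 37 members. CCGGAAG, a core that ETS family factors bind, was in 12 of the 30 members (40.0%) and in 8.86% of all windows. Its 12 members were Cmc1, Cox10, Cox14, Cox15, Cox16, Cox20, Cox6a1, Cox6b1, Cox8a, Pet100, Sco1 and Surf1. Here and for the motifs below, a member counts if any of its windows matched, while the other share counts single windows. The 2 shares are therefore not of like units. CCGGAAG holds a CG, and members had more CG (median 21, against 7 in all windows). The part of CG content in the matches was not tested. GCATGCG, a core of the NRF1 site, was in 3 members, Cmc1, Cmc2 and Cox6a1, and in 3.58% of windows. The E-box CAGCTG was in 2, Cox8b and Sco2 (6.67%), and in 16.3% of windows, and TATAAA was in 2, Cox10 and Cox8b (6.67%), and in 13.6% of windows. Cox7b, Cox5a, Cox7a2, Cox7c and Cox11, which rose in COX10 KO muscle, were not among the members with CCGGAAG, while Cox6a1, which rose, and Pet100, which fell, were. A match is a stretch of letters and says nothing about binding in these tissues.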

How the data were processed

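Libraries were made with the QuantSeq 3′ kit from total RNA. Per the labels and methods, the authors trimmed reads with BBDuk, aligned them with STAR 2.5.0a to GRCm38.p6 and deposited raw read counts per gene from HTSeq 0.6.1. Gene positions came from GENCODE M21 on GRCm38 and promoters from RefSeq. All columns were mapped to samples.

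The members and lists were chosen with earlier results of these data known. Counts were tested with edgeR 4.0.16 (R 4.3.3; TMM factors, filterByExpr by group, quasi-likelihood test, Benjamini-Hochberg over all genes tested, threshold 0.05), within each tissue, with labelled sex as a term in muscle and liver. The interaction of genotype and tissue was fitted over muscle and liver, and the tissues were compared over the CTL libraries. Isoform shares were compared by a 2-sided exact permutation test (scipy 1.17.1), adjusted over 3 pairs. The pair of subunit 4 could not be tested. Each fit was also run on simulated data. Of 100 genes given a log2 change of 1, 49 were recovered in muscle, 6 in liver and 45 in hypothalamus. For CTL muscle against CTL liver 18 were recovered, and for the interaction 8. Only these genes and 100 more, at log2 2, were changed, and all others had 1 mean level in every library. The data themselves had more calls in muscle (868 higher and 763 lower) and between CTL tissues. The adjusted threshold therefore differed there, and these recoveries are not those of the reported tests. A lack of calls in liver or in the interaction therefore does not show that changes of that size are absent. p-values measure the spread between libraries, whose animals the labels do not name. DESeq2 1.42.0, other scaling, filters and terms, each sex alone, thinning and leaving out each library were alternatives, and a filter by the model terms was added after the data were seen.

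Named with values were members called between genotypes, the isoform pairs, Cox7a2l, Cox10, Cox15, the 3 members with the smallest p in liver and in hypothalamus and, in each other list, the 2 genes with the smallest p. Other members and genes were given in addition, after their values were seen. Same-numbered CTL and COX10 KO hypothalamus libraries deviated together, with correlations of 0.805, 0.204, 0.395 and 0.308. Libraries of unlike number ran from -0.633 (CTL 1 with COX10 KO 4) to 0.469 (CTL 3 with COX10 KO 4). The highest of these exceeded the same-number values of libraries 3 and 4, so pairing by number is not certain. The main fit did not pair the libraries, and the replicate number was used as a block in an alternative. The block changed no member's call there.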

Additional observations from a re-analysis of the deposited data

Results flagged for a closer look

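Single libraries that lay far from the rest of their group were found in 11 of 86 groups of values examined, and chance alone marks about 1 in 20 groups. In COX10 KO liver, library 3, the shallowest of that tissue, held the highest level of 4 members. These were Coa3 at 97.5 CPM (others 52.8 to 67.7), Cox10 at 137 CPM (others 24.1 to 65.3), Cox7a2 at 1809 CPM (others 386 to 713) and Cox7a2l at 344 CPM (others 43.0 to 91.6). COX10 KO liver 6 had Cox6a2 at 27.3 CPM (others 0 to 4.02) and a Cox6a2 share of subunit 6A of 2.67% (others 0 to 0.399%), in a library whose fibre markers summed to 726 CPM. COX10 KO liver 2 had the lowest Cox7a1 of its group at 5.15 CPM (others 6.31 to 6.99). CTL liver 4, a library that did not match its labelled sex, had Cox8a at 507 CPM (others 217 to 296). In COX10 KO muscle 6, Cox6a2 stood at 1943 CPM (others 3261 to 3880) and its share of subunit 6A at 92.1% (others 94.8% to 96.4%). In CTL muscle 2 that share was 87.1% (others 96.8% to 99.0%). The part of depth or of other tissue in these libraries was not tested.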

How the results depend on the processing

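The signs of the isoform shares and of a set of named members were followed through the alternatives. None of these values that was past a threshold changed sign. Called members outside this set, as in the comparisons of CTL tissues, were not followed for sign. In muscle the members higher numbered 3 with relative log expression factors, 11 by library size alone, 0 in females and 1 in males, against 6, and 3 to 6 without 1 library. The members lower numbered 0 in females, in males and with at least 10 counts in every library, against 1. With DESeq2 the interaction had 1 member lower, and 0 to 1 without 1 library. CTL muscle against liver had 3 lower with no filter. By library size alone hypothalamus had 4 higher and 5 lower against liver, and 5 and 13 against muscle. The Cox7a1 share fell by 13.6 points in females (adjusted exact p = 0.3) and it fell by 10.9 points in males (adjusted exact p = 0.15). The difference of the Cox6a2 share was 1.68 points in females and -2.99 to -0.59 without 1 library, and that of Cox8b -2.42 points in males, -0.028 as a log2 ratio and -0.93 to 2.33 without 1 library.

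Same-numbered libraries did not pair in muscle (correlations -0.165 to 0.137) or liver (-0.342 to 0.211). With the replicate number as a block, the Cox7a1 share fell by 12.3 points (adjusted exact permutation p = 0.0938), 4 members were higher and 1 lower in muscle, and Cox6a2 stood at 0.045 in muscle and 0.0081 in hypothalamus.

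Uncalled log2 differences changed sign as follows. In muscle Cox6a2 was 0.13 by library size and 0.28 in females, and in males Cox10 was -0.10 and Cox7a1 -0.031. In liver Cox6a1 was -0.019 by library size and -0.024 with at least 10 counts, Cox8a -0.0011 by library size and -0.24 in males, and Cox15 0.13 with no sex term and 0.62 in males. By library size, hypothalamus against liver gave Cox7a1 0.83, Cox7a2l 0.52 and Cox8a 0.47, and against muscle Cox7a2l 0.39. Without CTL liver 1 and 4, Cox7a1 was 0.068 and Cox8b -0.11 against liver. Without 1 library, muscle Cox10 ran from -0.043 to 0.26 and Cox6a2 from -0.25 to 0.13. Liver Cox15 ran from -0.42 to 0.27, Cox6a1 from -0.022 to 0.17 and Cox8a from -0.060 to 0.33. Hypothalamus Cox8a ran from -0.15 to 0.17, Cox6a2 from -0.14 to 0.21, Cox7a1 from -0.19 to 0.10 and Cox15 from -0.71 to 0.37. In the interaction Cox7a2l ran from -0.54 to 0.21, Cox6a2 from -2.08 to 0.21 and Cox8b from -1.74 to 0.16. In CTL mice Cox7a2 ran from -0.10 to 0.17 for muscle against liver, and for hypothalamus against liver Cox7a1 from -0.43 to 0.087, Cox8a from -0.59 to 0.0065 and Cox10 from -0.071 to 0.22. Against liver, the call of Cox6a1 in hypothalamus was lost without CTL liver 4, CTL liver 5 or CTL hypothalamus 1. The causes were not tested.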
